A study of Mus musculus with 18 samples.

Results

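The genes described here are the MHC class II presentation genes H2-Aa, H2-Ab1, H2-Eb1, H2-DMa, H2-DMb1, Cd74 and Ciita, measured in the livers of lean and obese mice with and without methotrexate. They were taken by name, with every array probe that a RefSeq table assigns to them, which gave 8 probes for 7 genes (H2-Ab1 has 2) out of 39429 probes and 21153 named genes on the array. All 7 genes passed the filter on dim signals, and each of the 8 probes lay well above background on all 18 arrays. Liver RNA came from 18 male C57BL/6 mice, 1 array per mouse. From the age of 6 weeks LFD mice (n = 4) ate a 10% fat diet and HFD mice (n = 4) a 60% fat diet. LFD MTX50 (n = 5) and HFD MTX50 (n = 5) mice ate the same diets and, after 10 weeks of feeding, received methotrexate, an antifolate, by 5 intraperitoneal doses of 50 mg/kg. Their livers were taken 1 week after the last dose. The arrays are of whole liver, so the cells that carry the class II transcripts are a small part of the RNA measured.

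MHC class II molecules display peptides from proteins that a cell has taken up, and CD4 T cells read them. An α chain and a β chain form the peptide groove: H2-Aa and H2-Ab1 encode the chains of I-A, and H2-Eb1 encodes the β chain of I-E, which C57BL/6 mice do not assemble because they lack a functional H2-Ea α chain. Cd74, the invariant chain, occupies the groove and guides the complex to endosomes, where H2-DMa and H2-DMb1 form the editor that exchanges the invariant chain remnant for peptide. Ciita encodes the coactivator without which class II promoters are almost silent, and it acts through proteins bound to a pair of promoter elements, the X box and the Y box. In liver these genes are used mainly by dendritic cells, Kupffer cells and other macrophages, and B cells, and not by resting hepatocytes.

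Promoter elements of members are shown because they are the known site of Ciita action. RefSeq promoter windows (assembly GRCm38.p6) were found for 4 of the 7 members, H2-Aa, H2-Eb1, H2-DMa and H2-DMb1. Below are the 120 bases before the annotated start of 3 of them, with letters that match the X box (CTNGNAACT) and the Y box (GATTGG) on either strand in capitals.
H2-Aa, chr17:34287824-34287943, minus strand: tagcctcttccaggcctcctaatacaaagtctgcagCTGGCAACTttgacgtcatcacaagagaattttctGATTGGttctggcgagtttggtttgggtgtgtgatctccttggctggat
H2-Eb1, chr17:34305747-34305866, plus strand: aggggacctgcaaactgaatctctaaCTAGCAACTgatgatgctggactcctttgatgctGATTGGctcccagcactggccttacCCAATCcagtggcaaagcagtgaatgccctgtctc
H2-DMb1, chr17:34153071-34153190, plus strand: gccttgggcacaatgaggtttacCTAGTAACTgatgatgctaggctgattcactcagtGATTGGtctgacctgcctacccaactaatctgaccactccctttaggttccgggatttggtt
The X box letters began 84, 94 and 97 bases before the start in H2-Aa, H2-Eb1 and H2-DMb1, and the Y box letters on the same strand began 35, 34 and 35 bases further on. H2-Eb1 also held the Y box letters once on the other strand. Of 32851 promoter windows in the table, 3.47% held the X box letters, 14.6% the Y box letters and 0.511% both within 250 bases of the start. In 6 windows both stood on the same strand with starts 20 to 40 bases apart, 3 of them those shown and another, BC051142, also on chromosome 17. The 2 windows of H2-DMa held no X box letters, and 1 of them held the Y box letters 199 bases before the start. The letters were chosen after these windows had been read, and a match is a description of the sequence only.

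Levels are given as the log2 of the processed array signal minus the 75th percentile of that array, so that 0 marks that percentile, and a level is compared only with that of the same probe on other arrays. Differences between groups are log2 differences ± SE from limma, a linear model fitted over all probes, with Benjamini-Hochberg adjustment over 35739 probes. A gene is called changed at an adjusted p below 0.05. The 75th percentile lay between 1203 and 2263 intensity units over the arrays, 83.9 to 90.6% of probes lay well above background, and no spot was saturated. The arrays lay on 6 slides, and only HFD and HFD MTX50 share one. Comparisons of any other groups therefore cannot be told apart from a difference between slides, and the difference of the methotrexate effects rests on such groups. The methods state that mice were housed individually before treatment began. Nothing states that the mice of a group were handled on separate days, so the p-values measure the spread between these mice. The number of mice limits the precision: exact 2-sided permutation tests cannot go below 0.0079 for 4 against 5 mice or 0.029 for 4 against 4.

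**Figure D1:**
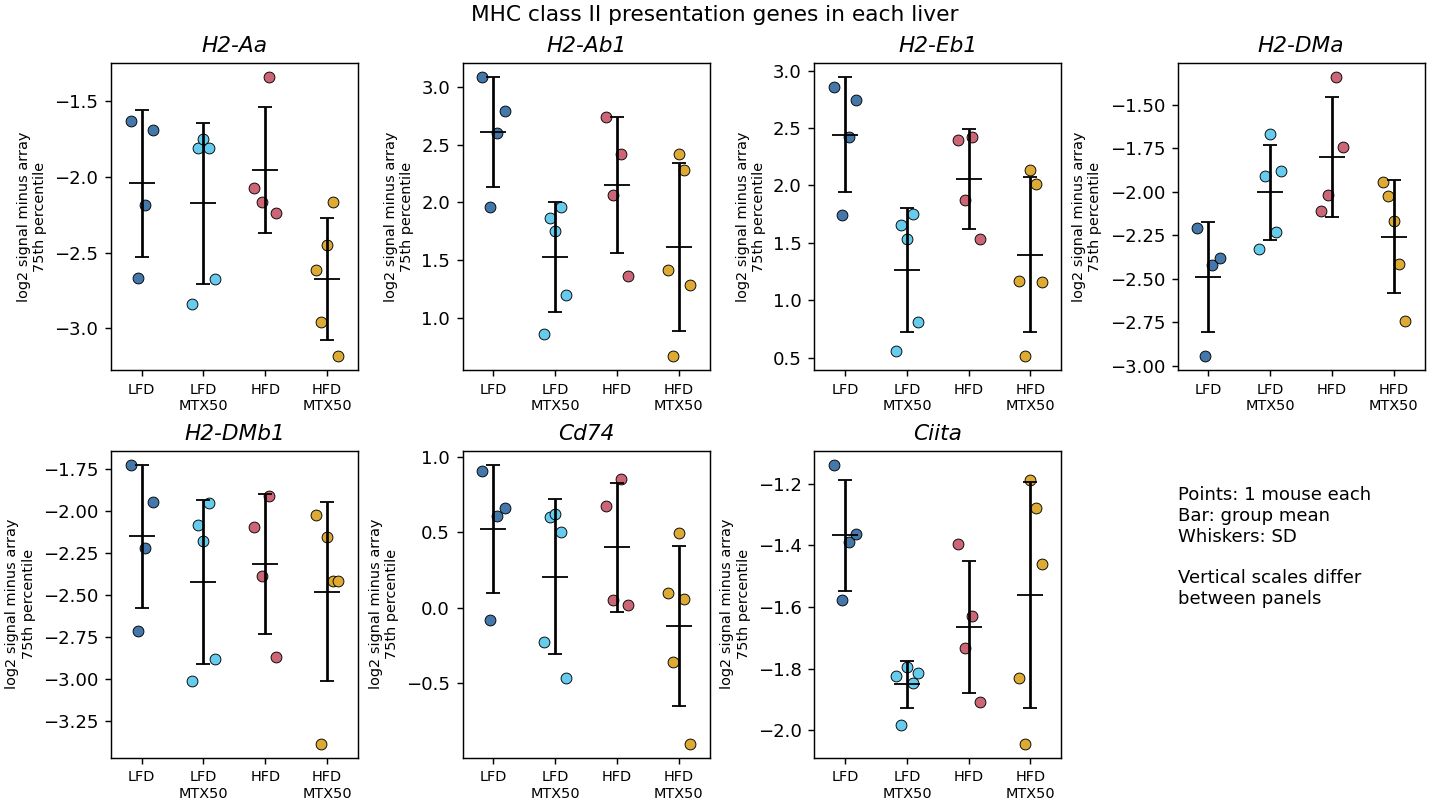
Log2 signal minus the array's 75th percentile for the 7 class II genes in each liver, 1 point per mouse, with group mean and SD; the vertical scale differs between panels. In H2-Ab1 and Ciita the 5 LFD MTX50 mice lie below the lowest LFD mouse (Ciita changed sign, to 0.086, with normexp background modelling), while in H2-Aa, Cd74 and H2-DMb1 the groups overlap throughout.

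In lean mice, methotrexate went with lower transcripts of the class II β chains and of their coactivator. Of the 7 members, 3 were lower in LFD MTX50 than in LFD (H2-Ab1, H2-Eb1 and Ciita), 0 were higher and 4 were not called, where 28.1% of 19598 genes were called, 17.6% as higher and 10.5% as lower. In 2 of the 7, both lower, the groups did not overlap, which 11.5% of genes showed as lower and 17.6% as higher. The median over the members was -0.32, against 0.10 over all genes. The question addressed is what the drug changes in liver in the absence of obesity.

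H2-Ab1, the I-A β chain, stood at 3.09, 1.96, 2.60 and 2.79 in the 4 LFD mice. In the 5 LFD MTX50 mice it stood at 0.86, 1.86, 1.75, 1.96 and 1.20. Only LFD mouse 2 came near the treated range, and the groups met at 1.96 without overlapping. The log2 difference was -1.08 ± 0.36, which is 2.12-fold (limma adjusted p = 0.035; 2-sided exact permutation p = 0.0079). The second H2-Ab1 probe gave -1.11 ± 0.34 (limma adjusted p = 0.024), with LFD mouse 2 at 1.81 just under LFD MTX50 mouse 4 at 1.86.

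H2-Eb1, the β chain of I-E, followed closely. Its levels were 2.86, 1.75, 2.42 and 2.75 in LFD. In LFD MTX50 they were 0.56, 1.65, 1.53, 1.75 and 0.82. LFD mouse 2 was again the lowest of its group, here level with the highest treated mouse, and LFD MTX50 mice 1 and 5 were the lowest of the lean mice. The log2 difference was -1.18 ± 0.34, which is 2.27-fold (limma adjusted p = 0.020, by 2-sided exact permutation 0.016).

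Ciita, the coactivator, changed less in size and varied least. It stood at -1.14, -1.58, -1.39 and -1.36 in LFD. In LFD MTX50 it stood at -1.82, -1.98, -1.79, -1.84 and -1.81. All treated mice were below all untreated ones, and the treated SD was 0.075, against 0.18 in LFD. The log2 difference was -0.48 ± 0.16, which is 1.40-fold (limma adjusted p = 0.032, and 0.0079 by exact permutation), but it was 0.086 with normexp background modelling, where the median of all probes was 0.66.

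These 3 calls rest on few mice and on a model in which arrays of a slide are independent. With arrays of 1 slide allowed to correlate, the log2 differences were -1.13, -1.24 and -0.48 for H2-Ab1, H2-Eb1 and Ciita, and none was called (limma adjusted p = 0.17, 0.13 and 0.15). Without LFD mouse 1 or LFD mouse 4, 0 of the 3 remained called, and without LFD mouse 3, LFD MTX50 mouse 1 or LFD MTX50 mouse 3 only H2-Eb1 did. H2-Ab1 was also lost without LFD MTX50 mouse 5, and Ciita without LFD MTX50 mouse 2 (limma adjusted p = 0.065 and 0.063). Over the alternatives tried, leaving out mice aside, the adjusted p ran from 0.020 to 0.17 for H2-Ab1, 0.016 to 0.13 for H2-Eb1 and 0.0084 to 0.86 for Ciita. In whole liver, fewer cells of a type and less RNA per cell cannot be told apart.

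The other members of the pathway did not pass the test in lean mice. H2-Aa, the α partner of H2-Ab1, spanned -2.67 to -1.63 in LFD mice and -2.84 to -1.75 in treated ones, with a log2 difference of -0.13 ± 0.29 (limma adjusted p = 0.75). Cd74 spanned -0.08 to 0.91 in LFD mice and -0.47 to 0.62 in treated ones, a difference of -0.32 ± 0.30. H2-DMb1, the β chain of the peptide editor, differed by -0.27 ± 0.30. Under normexp the differences of H2-Aa and H2-DMb1 were 0.51 and 0.37. H2-DMa, its α chain, had the opposite sign, with a difference of 0.49 ± 0.20 (limma adjusted p = 0.076), and its 4 LFD values and 5 treated values overlapped only through LFD mouse 1 at -2.21.

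**Figure D2:**
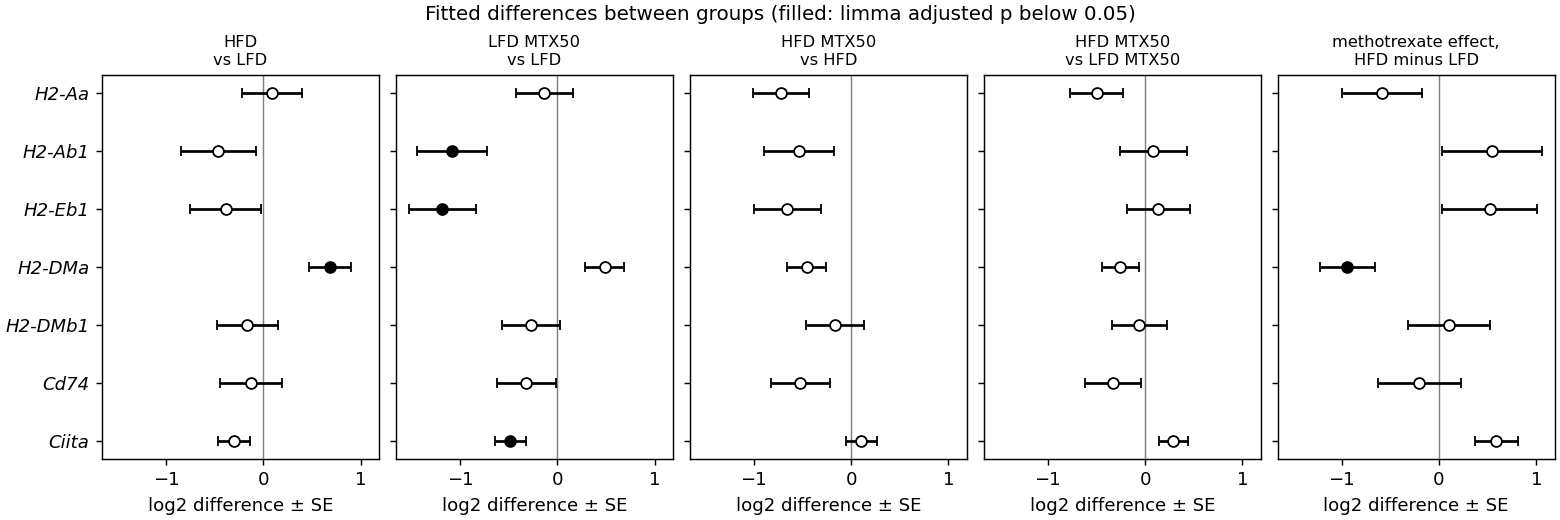
Log2 difference ± SE from limma for the 7 class II genes in the 4 comparisons of groups and in the difference between the methotrexate effects of the 2 diets; filled points have an adjusted p below 0.05. H2-Ab1 (-1.08), H2-Eb1 (-1.18) and Ciita (-0.48, but 0.086 with normexp background modelling) are filled in LFD MTX50 vs LFD, H2-DMa in HFD vs LFD (0.69) and in the last panel (-0.94), and no gene in the other panels.

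Because signals of the same array share their scaling, the change of one member against another does not depend on the array's percentile. In each comparison the 21 pairs of members were set against each other, a description added after the values were seen and given without a test. In LFD MTX50 vs LFD, 10 of the 21 pairs had no overlap between the groups, where single genes without overlap made up 17.6% (higher) and 11.5% (lower) of all genes and the share over pairs of other genes was not computed. H2-Aa gained 0.95 on H2-Ab1 on the log2 scale, with SDs of 0.14 and 0.13 within the groups. It gained 1.05 on H2-Eb1, and Cd74 gained 0.76 on H2-Ab1 and 0.86 on H2-Eb1. The groups lie on separate slides. The remaining 6 pairs set H2-DMb1 against H2-Ab1 or H2-Eb1, or H2-DMa against H2-Ab1, H2-Eb1, Cd74 or Ciita. In them the β chains were lower against H2-DMb1, and H2-DMa was higher against each partner. Each of the 10 pairs holds H2-Ab1, H2-Eb1 or H2-DMa. H2-Ab1 and H2-Eb1 moved together over the 18 arrays (r = 0.98) and H2-Ab1 itself did not overlap, so these pairs are not separate observations. None of the 10 changed sign under normexp, quantile normalization, the series table, or when outlier spots were kept. Median scaling shifts all signals of an array alike and could not change them. Only signs were compared, and the pairs had been picked from these same data.

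In untreated obese mice, 1 of the 7 members differed from untreated lean mice. H2-DMa was higher in HFD than in LFD, and the other 6 were not called, where 28.3% of genes were called, 18% as higher and 10.4% as lower. H2-DMa stood at -2.21, -2.94, -2.42 and -2.38 in LFD. In HFD it stood at -2.11, -2.02, -1.34 and -1.74. All 4 obese mice were above all lean ones, with HFD mouse 1 and LFD mouse 1 the closest. The log2 difference was 0.69 ± 0.21, which is 1.61-fold (limma adjusted p = 0.026; exact permutation p = 0.029). Groups that did not overlap were seen in 24% of genes as higher and 16.2% as lower in HFD. The call was lost without LFD mouse 2, HFD mouse 3 or HFD mouse 4 (limma adjusted p = 0.088, 0.10 and 0.067) and when arrays of a slide could correlate (0.64, limma adjusted p = 0.14), and over the other alternatives the adjusted p ran from 0.021 to 0.36.

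Its partner H2-DMb1 differed by -0.17 ± 0.31 in the same comparison. The groove chains and the invariant chain differed by 0.09 ± 0.31 for H2-Aa, -0.46 ± 0.38 for H2-Ab1, -0.39 ± 0.36 for H2-Eb1 and -0.12 ± 0.32 for Cd74. Ciita differed by -0.30 ± 0.17 (limma adjusted p = 0.18). Signs turned under normexp for H2-DMb1 (0.42) and Ciita (0.12), and under quantile normalization for H2-Aa (-0.04). Of the 21 pairs of members, 6 had no overlap between lean and obese mice, and each of the 6 set H2-DMa against another member, with changes from 0.60 for H2-Aa to 1.15 for H2-Ab1 in favor of H2-DMa. H2-DMa itself did not overlap, so these pairs are not separate observations. Single genes without overlap made up 24% (higher) and 16.2% (lower) of all genes, and the share over pairs of other genes was not computed.

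In obese mice, methotrexate gave no call among the members by limma, where 11% of genes were called, 4.83% as higher and 6.13% as lower. Groups that did not overlap were seen in 0 members, against 5.23% of genes as higher and 6.21% as lower. At an unadjusted p below 0.05 there were 2, H2-Aa and H2-DMa, and 0 members were called under any of the alternatives or without any single mouse. The median over the members was -0.52, against -0.040 over all genes. H2-Aa stood at -2.07, -2.16, -1.34 and -2.24 in HFD. In HFD MTX50 it stood at -2.61, -2.96, -2.45, -2.17 and -3.18. Only HFD MTX50 mouse 4 lay within the HFD range, and the log2 difference was -0.72 ± 0.29 (limma adjusted p = 0.10; exact permutation p = 0.024), but 0.14 under normexp.

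H2-Eb1 differed by -0.66 ± 0.34 between HFD MTX50 and HFD, H2-Ab1 by -0.54 ± 0.36, Cd74 by -0.52 ± 0.30, H2-DMa by -0.46 ± 0.20 and H2-DMb1 by -0.16 ± 0.30. Ciita differed by 0.11 ± 0.16. Under normexp the signs turned for H2-DMa (0.27) and H2-DMb1 (0.31). H2-Ab1 spanned 1.37 to 2.74 in HFD, while in HFD MTX50 mice 3 and 4 stood at 2.42 and 2.28 and mice 1, 2 and 5 at 1.41, 0.67 and 1.29. The SD of H2-Ab1 within HFD MTX50 was 0.73, larger than the difference between the groups. On the slide that both groups share, which holds 2 HFD and 2 HFD MTX50 mice, the differences were -0.99 for H2-Aa, -1.14 for H2-Eb1, -0.85 for H2-Ab1, -0.57 for Cd74, -0.44 for H2-DMa, -0.32 for H2-DMb1 and -0.17 for Ciita, none of them called (limma adjusted p from 0.15 to 0.72). The sign of the Ciita difference thus turned on the shared slide. Among the 21 pairs of members, 2 had no overlap between the groups: H2-Aa and H2-Eb1 each against Ciita, with changes of -0.82 and -0.76. Single genes without overlap made up 5.23% (higher) and 6.21% (lower) of all genes, and the share over pairs of other genes was not computed.

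The treated groups, which both received 50 mg/kg, showed no call among the members in HFD MTX50 vs LFD MTX50 by limma, where 16.1% of genes were called, 7.37% as higher and 8.75% as lower, and in 0 members did the groups not overlap, against 1.78% of genes as higher and 4.35% as lower. None had an unadjusted p below 0.05 either. Ciita came nearest, with -1.83, -2.04, -1.19, -1.28 and -1.46 in HFD MTX50 and a difference of 0.29 ± 0.15 (limma adjusted p = 0.18). Without HFD MTX50 mouse 2, the lowest of its group, Ciita was called, with 0.41 (limma adjusted p = 0.046). The remaining differences ran from -0.50 ± 0.27 for H2-Aa to 0.14 ± 0.33 for H2-Eb1, and under normexp only Cd74 and Ciita kept their signs.

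The test of whether the methotrexate effect differed between the diets called 1 member, where 26.8% of genes were called, 8.66% as higher and 18.1% as lower. It was H2-DMa, whose effect was 0.49 ± 0.20 in lean and -0.46 ± 0.20 in obese mice, a difference of -0.94 ± 0.28 (limma adjusted p = 0.024). Neither effect was called by itself. For H2-DMa, HFD MTX50 differed from LFD MTX50 by -0.26 ± 0.19 and HFD from LFD by 0.69 ± 0.21. The difference of the effects combines these values, so it is not separate from the result in HFD vs LFD. The call was lost without LFD mouse 2, HFD mouse 3 or HFD mouse 4 (limma adjusted p = 0.055, 0.061 and 0.050) and when arrays of a slide could correlate (limma adjusted p = 0.087), with adjusted p from 0.020 to 1.00 over the other alternatives. For Ciita the difference of the effects was 0.59 ± 0.22 (limma adjusted p = 0.058), and it was called when the arrays were scaled to the median of the probes above background everywhere (0.72, limma adjusted p = 0.038) or by quantiles (0.73, limma adjusted p = 0.047). For H2-Ab1 and H2-Eb1 the differences of the effects were 0.55 ± 0.51 and 0.52 ± 0.49 (limma adjusted p = 0.44 and 0.43). The fall of the β chains in lean mice was not shown to differ from the change in obese mice.

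**Figure D3:**
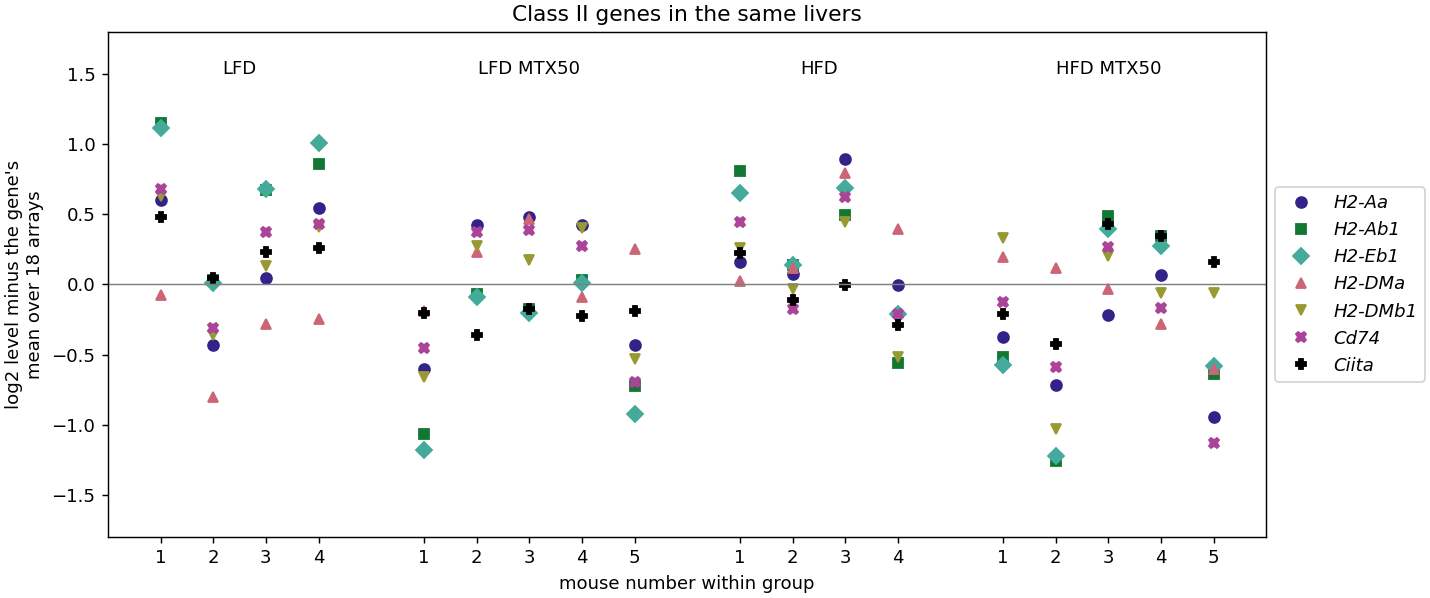
Level of each of the 7 class II genes in each liver, as log2 level minus the gene's own mean over 18 arrays, with mice numbered within their group. H2-Ab1 and H2-Eb1 nearly coincide in every mouse (r = 0.98), LFD mouse 2, LFD MTX50 mice 1 and 5 and HFD MTX50 mice 2 and 5 are low for most genes, and H2-DMa departs from the rest.

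From liver to liver, most members were high or low together. Over the 18 arrays, H2-Ab1 and H2-Eb1 had a Pearson r of 0.98 and a Spearman rho of 0.99, and r was 0.97 without the 2 arrays farthest from the median of H2-Ab1. H2-Aa and Cd74 had r = 0.90 and rho = 0.91, with 0.85 without the 2 farthest arrays. Taken as deviations from the group means, these were 0.98 and 0.88. Ciita was closer to H2-Ab1 (r = 0.77, rho = 0.76) than to Cd74 (r = 0.33, rho = 0.41) or H2-Aa (r = 0.20, rho = 0.27). H2-DMa stood apart, with r from -0.42 (Ciita) to 0.47 (H2-Aa) in its 6 pairs, against 0.20 to 0.98 in the other 15. These values are descriptions over 18 arrays of 4 groups that share scaling and slides.

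LFD mouse 2 was the lowest of the 4 LFD mice for each of the 7 members, and LFD MTX50 mice 1 and 5 were the lowest of their group for H2-Aa, H2-Ab1, H2-Eb1, H2-DMb1 and Cd74. By the mean over the members, each centred on its own mean, the lowest of the 18 livers was HFD MTX50 mouse 2 (-0.73), followed by LFD MTX50 mouse 1 (-0.62), HFD MTX50 mouse 5 (-0.54) and LFD MTX50 mouse 5 (-0.46). The spread within groups was wide for these genes, with SDs of 0.40 to 0.53 for H2-Aa and 0.47 to 0.73 for H2-Ab1. In LFD MTX50 vs LFD the SE of H2-Ab1 was 0.36, against 0.16 for Ciita in the same mice.

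The wider class II pathway was read from 23 listed genes on the array, of which H2-DMb2 was above background on 6 arrays and the others on all 18. Of the 23, 0 were higher and 3 lower in LFD MTX50 vs LFD, a smaller share than the 28.1% of all genes called. Marchf8 and Marchf1 encode membrane ubiquitin ligases, and Marchf1 sends surface class II molecules for degradation. Marchf8 stood at 2.29, 2.32, 2.33 and 2.41 in LFD, and at 1.45, 1.67, 1.53, 2.01 and 1.41 in LFD MTX50, with no overlap and a difference of -0.73 ± 0.17 (limma adjusted p = 0.0069). The probes of Marchf1 disagreed: the brighter, counted here, differed by -0.53 ± 0.18 and the other by 0.46 ± 0.16, both called (limma adjusted p = 0.040 and 0.038), so that no direction is given for Marchf1. Nfya, a subunit of the factor that binds the Y box, differed by -0.31 ± 0.10 (limma adjusted p = 0.034), but 0.88 under normexp. When arrays of a slide could correlate, 0 of the 3 were called. Its partners Nfyb and Nfyc, the X box proteins Rfx5, Rfxap, Rfxank and Creb1, and the costimulators Cd80, Cd86 and Cd40 were not called in this comparison on their brightest probes, while the second Nfyc probe was called lower (-0.23 ± 0.08, limma adjusted p = 0.046).

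In HFD vs LFD, 1 of the 23 pathway genes was higher and 2 were lower, beside 28.3% of all genes called. H2-Oa, the α chain of the DM inhibitor DO, stood at -4.67, -4.83, -4.91 and -4.85 in LFD and at -4.27, -4.15, -3.69 and -3.79 in HFD, with no overlap and a difference of 0.84 ± 0.19 (limma adjusted p = 0.0076). H2-Ob, its partner, differed by 0.22 ± 0.20 (limma adjusted p = 0.40). The proteases Ctsl and Ctsh, which trim endosomal proteins in many liver cells, were lower in HFD, with differences of -0.77 ± 0.17 and -0.42 ± 0.09 (limma adjusted p = 0.0065 and 0.0071). When arrays of a slide could correlate, 0 of the 3 were called, and 1 was under quantile normalization. The second probes of Nfyc and Rfx5 were called (-0.59 ± 0.09 and 0.42 ± 0.15, limma adjusted p = 0.0025 and 0.048), while their brightest probes were not.

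In HFD MTX50 vs HFD, 3 of the 23 pathway genes were higher and 0 lower, a share near the 11% of all genes called. The 3 encode endosomal proteases, but other listed proteases, Ctsb, Ctsd and Ctss, were not called. Ctsb differed by 0.30 ± 0.16 and Ctsd by 0.01 ± 0.16 (limma adjusted p = 0.22 and 0.96). Lgmn stood at 1.23, 1.25, 1.65 and 1.09 in HFD and at 2.44, 1.63, 1.61, 2.06 and 2.26 in HFD MTX50, with an overlap at HFD mouse 3 and a difference of 0.70 ± 0.20 (limma adjusted p = 0.035). Ctsl and Ctsh differed by 0.59 ± 0.16 and 0.33 ± 0.09 (limma adjusted p = 0.030 and 0.029). These and the comparison of HFD with LFD share the HFD mice. When arrays of a slide could correlate 2 of the 3 were called, and under quantile normalization 0. Ctss, a protease that cuts the invariant chain, differed by 0.75 ± 0.28 (limma adjusted p = 0.080), and Ifi30, which reduces disulfides in endosomes, by 0.34 ± 0.23. In HFD MTX50 vs LFD MTX50, Nfyb was higher by 0.42 ± 0.12 and Ctsh lower, at -0.27 ± 0.08 (limma adjusted p = 0.032 and 0.041). Neither was called when arrays of a slide could correlate, and the other Nfyb probes differed by -0.04 and 0.07 (limma adjusted p = 0.89 and 0.78). Of the 23, 0 were called by limma on their brightest probes in the difference of the effects, where 5 had an unadjusted p below 0.05. The second Nfyc probe was called there (0.44 ± 0.12, limma adjusted p = 0.015). In HFD MTX50 vs LFD MTX50 the second Rfx5 probe was called (0.47 ± 0.14, limma adjusted p = 0.031). H2-Eb2, an additional β chain gene, and H2-DMb2, a close relative of H2-DMb1 whose transcripts a probe may not separate, were called in no comparison.

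Markers of the cells that use class II molecules are given beside the lower β chains, in a comparison in which 17.6% of all genes were called higher and 10.5% lower, and in which higher genes made up 62.7% of calls but 45.3% under quantile normalization. In LFD MTX50 vs LFD, 4 of 10 dendritic cell markers tested were higher (Clec9a 0.82 ± 0.15, Zbtb46 0.77 ± 0.17, Irf4 0.51 ± 0.09 and Batf3 0.43 ± 0.15) and 1 was lower (Ccr7, a receptor of migrating dendritic cells, -0.78 ± 0.24). Of 8 B cell markers 4 were higher (Blk 0.86 ± 0.28, Fcer2a 0.52 ± 0.12, Cd79a 0.52 ± 0.14 and Pax5 0.46 ± 0.16) and 0 lower. Of 10 Kupffer cell markers 0 were called by limma, 1 had an unadjusted p below 0.05 and the median difference was 0.29, and of 4 monocyte markers 1, Itgam, was called at -0.54 ± 0.15, but another of its probes was called at 0.57, so that no direction is given for it. The second Zbtb46 probe was not called (0.27). Ptprc, carried by leukocytes in general, was higher by 0.51 ± 0.17. That call was lost under quantile normalization, median scaling and normexp, and when arrays of a slide could correlate. The mean level of the dendritic cell list spanned -1.96 to -1.64 in LFD mice and -1.62 to -1.36 in treated mice, that of the B cell list -2.71 to -2.33 and -2.36 to -2.14, and that of the Kupffer cell list -0.42 to 0.34 and -0.17 to 0.81. All these markers lay above background on every array, and Xcr1, a dendritic cell marker, did not pass the filter. Their part in the class II values was not tested. Under quantile normalization 2 of the 5 dendritic cell calls and 1 of the 4 B cell calls remained, and under normexp 0 of either, with no sign changed. When arrays of a slide could correlate, 2 of the 5 and 0 of the 4 remained.

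The same lists are given for untreated obese mice, where 18% of all genes were called higher and 10.4% lower, and where higher genes made up 63.4% of calls but 47.4% under quantile normalization. In HFD vs LFD, 4 of 8 B cell markers were higher (Blk, Cd79a, Pax5 and Fcer2a) and 3 of 10 dendritic cell markers (Cd209a, whose second probe was not called, Irf4 and Batf3), with 0 lower in either list, while Timd4, a Kupffer cell marker, was lower, at -0.80 ± 0.27. Of these calls 0 of the dendritic cell and 1 of the B cell markers remained under quantile normalization, and 0 when arrays of a slide could correlate. The mean of the B cell list spanned -2.29 to -1.87 in HFD and that of the dendritic cell list -1.60 to -1.24, both above all LFD mice. Of single genes, 24% lay wholly higher in HFD than in LFD. The median difference of all probes was 0.12 here, against 0.02 under quantile normalization. In HFD MTX50 vs HFD, where 11% of all genes were called, C1qc, a complement gene of Kupffer cells, was higher by 0.76 ± 0.22, a call lost when arrays of a slide could correlate (limma adjusted p = 0.060). It was the 1 call among 10 Kupffer cell markers, of which 9 had positive differences, with a median of 0.60. The differences of all 8 B cell markers were negative, with a median of -0.28 and 1 called lower. That call remained under quantile normalization and when arrays of a slide could correlate, but under normexp it was lost and its sign turned. There were 0 dendritic cell calls by limma and 3 at an unadjusted p below 0.05. Hepatocyte markers lay above background in every liver, with Cps1 lower in HFD than in LFD, at -1.24 ± 0.25. The part of these markers in the H2-DMa values was not tested.

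**Figure D4:**
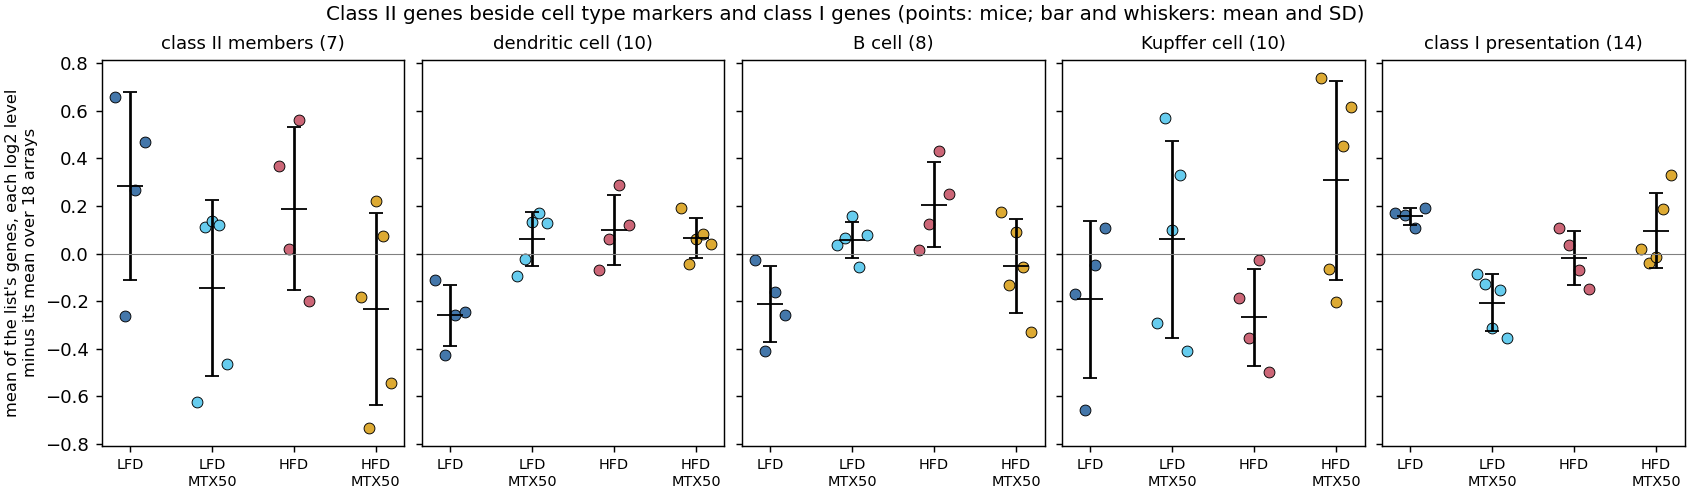
Mean over the genes of each list of the log2 level minus the gene's mean over 18 arrays, for each mouse, with group mean and SD; the number of genes is in parentheses. On the dendritic cell list every LFD MTX50 mouse lies above every LFD mouse by a narrow margin, whereas class I presentation lies below all LFD mice. Of single genes, 17.6% lay wholly higher and 11.5% wholly lower in LFD MTX50 than in LFD. The class II mean spreads widely within each group.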

How the data were processed

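RNA of 18 mouse livers was hybridised to one-colour Agilent 4×44K arrays (Cy3). Per the labels and file headers, the authors read the scans with Agilent Feature Extraction 10.7.3.1, and the deposited intensities are spot signals from which that software removed background and trends within an array; arrays were not scaled against each other. The series table holds the background-subtracted intensity, rounded, and served as an alternative. The array was laid out on mm9 (NCBI37), so coordinates here are those of RefSeq genes on GRCm38.p6. The sample records and the methods differ on the RNA column and amplification kit.

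Here log2 of the processed signal minus the 75th percentile of each array was used. Outlier spots (124 to 294 per array) were left out and spots of a probe averaged. A probe was kept if well above background on at least 4 of 18 arrays (35739 of 39429 probes, of which 347 lack a value on some array). RefSeq named 28025 probes (71.1%), and a gene was read on its brightest kept probe (19598 genes). limma 3.58.1 in R 4.3.3 fitted the 4 groups in 1 model (prior 2.77 degrees of freedom) and was tested on simulated data. Exact permutation tests used SciPy 1.17.1 and were 2-sided on the absolute difference of means. Named were all members, listed pathway genes past the adjusted p in any comparison plus 7 named whatever their value (H2-Ea, which has no probe, included), up to 4 genes by size for the class I and interferon γ lists, and the 10 genes most like the members' mean. Members and lists were chosen with earlier results of these data known. Alternatives were normexp (offset 50, on the median signal, as the mean signal was not used here), quantile and median scaling, the series table, outlier spots kept, other filters, robust variances with an intensity trend, fits of the compared groups alone, the methods' t-test, a 2-fold requirement, slides as random blocks (correlation 0.26) or fixed ones, a replicate block, averaging all probes of a gene, and leaving out each mouse. The comparison within the shared slide with groups split by slide and the pairs of members were added after seeing the data.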

Additional observations from a re-analysis of the deposited data

Results flagged for a closer look

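In 28 groups of member levels tested for a single extreme mouse, 2 were flagged, and chance flags about 1 in 20. H2-DMb1 in HFD MTX50 mouse 2 stood at -3.39, with the others up to -2.02. Ciita in LFD MTX50 mouse 2 stood at -1.98, the lowest of a group whose highest was -1.79.

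The methotrexate effect differed between the diets by the interaction term of limma for H2-DMa (-0.94, obese minus lean), a call lost when arrays of a slide could correlate (limma adjusted p = 0.087). Among the class I presentation genes it differed for Canx (0.89), Nlrc5 (0.84) and Erap1 (0.65), but for the second Nlrc5 probe the value was -0.89, and 1 of the list's 4 calls remained when arrays of a slide could correlate. On the interferon γ list it differed for Gbp2 (1.53), Gbp3 (1.38), Jak2 (1.08) and Tgfb1 (-0.67), and 0 of the list's 6 calls remained when arrays of a slide could correlate.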

How the results depend on the processing

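Over 1148 values of single members under another setting, 1102 stayed on their side of the threshold, 39 lost a call and 6 gained one. In 1 a called difference reversed (Ciita in LFD MTX50 vs LFD under normexp, 0.086). Turned signs of members called under neither setting are among the 1102, such as H2-Aa in LFD MTX50 vs LFD (0.51 under normexp). The number of members called in LFD MTX50 vs LFD was 3, with 0 under normexp and when slides were random blocks, and 0 to 3 when a mouse was left out. In HFD vs LFD it was 1, and 0 under normexp, quantile normalization, both forms of the methods' t-test, a 2-fold requirement and random slide blocks, with 0 to 1 when a mouse was left out. In HFD MTX50 vs LFD MTX50 it was 0, with 0 to 1 when a mouse was left out. For the difference of the effects it was 1, 2 under median scaling, 0 under normexp, a 2-fold requirement and random slide blocks, and 0 to 2 when a mouse was left out; quantile normalization also gave 1, Ciita in place of H2-DMa. The cause was not tested. Under normexp the median difference of all probes was 0.41 to 0.66, against -0.11 to 0.16, and limma called 2 genes of the array in HFD vs LFD. Higher genes made up 62.7% of calls in LFD MTX50 vs LFD and 63.4% in HFD vs LFD, but 45.3% and 47.4% under quantile normalization and 44.1% and 47.1% under median scaling; for the difference of the effects the share was 32.4%, then 45.3% and 49%. Replicate numbers did not pair mice (r of same-numbered deviations from -0.31 to 0.25 over 25 pairs); with the replicate block 2 members were called in LFD MTX50 vs LFD, H2-Ab1 being lost (limma adjusted p = 0.059). The slide as a fixed block could be fitted for HFD MTX50 vs HFD alone. All member probes lay well above background on every array, and the part of background handling in the member differences was not tested.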

Other observations

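MHC class I presentation, which shows peptides made inside the cell to CD8 T cells and is used by hepatocytes too, was read from 14 listed genes. In LFD MTX50 vs LFD, 5 were lower and 0 higher, beside 28.1% of all genes called: Tap1, a peptide transporter subunit (-0.95 ± 0.18), Canx, a chaperone (-0.78 ± 0.22), and, named after their values were seen, Psmb9, an immunoproteasome subunit (-0.81 ± 0.18), H2-D1, a heavy chain (-0.51 ± 0.09), and B2m, the shared light chain (-0.44 ± 0.16). The list's mean level spanned 1.67 to 1.75 in LFD mice and 1.21 to 1.48 in treated ones. Under quantile normalization the 5 kept their calls, when arrays of a slide could correlate 2 did, and under normexp none did and the sign of Tap1 turned (0.33). In HFD MTX50 vs HFD, 1 gene was called, Nlrc5, the coactivator of class I promoters, at 0.85 ± 0.14 on its brightest probe. The second Nlrc5 probe ran the other way there (-0.52, not called) and in the difference of the effects (-0.89, called), so that no direction is given for Nlrc5. On brightest probes the difference of the methotrexate effects was positive in 13 of 14 genes, of which 4 were called, 2 of them also under quantile normalization and 1 when arrays of a slide could correlate. The class II coactivator Ciita had a difference of the same sign, 0.59 ± 0.22, that was not called.

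Interferon γ induces Ciita, and 13 genes of its axis were listed. Gbp2 and Gbp3, interferon-induced GTPases, were lower in LFD MTX50 than in LFD (-1.04 ± 0.26 and -0.96 ± 0.29), while Tgfb1 was higher (0.50 ± 0.14) and 10 were not called, with a median of -0.04. When arrays of a slide could correlate, 0 of these 3 calls remained. For Gbp2 and Gbp3 the differences of effect were 1.53 ± 0.37 and 1.38 ± 0.41. In that test 5 of the 13 were called as higher (with Jak2 and, named after their values were seen, Jak1 and Ifngr2) and 1, Tgfb1, as lower, beside 26.8% of all genes. When arrays of a slide could correlate, 0 of the 6 were called, and 4 were under quantile normalization.

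The 10 genes most like the members' mean over 18 arrays, by Pearson r among the genes read, were Rnf125 (0.85), Sco2 (0.82), Cdk2 (0.82), Dpep1 (0.79), Tymp (0.79), Dhrs3 (0.78), Pjvk (0.78), Cxcr6 (0.78), Coq8a (0.77) and Tex12 (0.76). These are the highest of all genes read and a description only.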
